A study of Mus musculus with 4 samples.

Results

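The genes described here encode acute phase proteins and complement components: Saa3, Hp, Lcn2, C3, C4b, Cfb, Serping1, Ptx3 and Orm1. They were taken as a named set of 9, and a gene was measured where a probe set of the array annotation named that gene alone. This gave 7 genes with 8 probe sets, out of 18193 genes and 45037 probe sets in all. For C3, the central complement component, the annotation used here named no probe set, and the only probe set of C4b was shared with its near-identical copy C4a, so neither was analysed here.

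Gene expression was measured on 4 Affymetrix mouse arrays, 2 from the OP9M2 line and 2 from the BFC012 line, to ask what kind of cell OP9M2 is and how it sustains human hematopoietic progenitors. OP9M2 is labelled as a supportive mesenchymal stem cell line, and the methods describe it as a single clone of OP9 stroma; it was grown in 20% serum. BFC012 is labelled as a non-supportive fibroblast line of fetal liver and was grown in 10% serum, so line and serum cannot be told apart. Both lines were irradiated with 2000 rad, seeded at a density of 25000 cells/cm2 and collected after 48 hours. Each line is 1 culture model, and p-values measure the spread between arrays that the labels call biological replicates.

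Acute phase proteins are secreted during infection or injury, mostly by the liver but also by fibroblasts, adipocytes and macrophages. Their genes are classically induced by interleukin-6 type cytokines through STAT3, and by interleukin-1 and tumour necrosis factor through NF-kappaB and the C/EBP factors. Complement is a cascade of plasma proteins that tags and lyses microbes, and several of its components behave as acute phase proteins themselves.

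Values are RMA values on the log2 scale. A gene was taken as above background on an array where it exceeded 6.09 log2 units. This level is the 95th percentile of the values of 81 probe sets for odorant, pheromone and trace amine receptors, pooled over all arrays. Calls required a limma adjusted p under 0.05 together with a 2-fold change (1 log2 unit), and differences are OP9M2 minus BFC012 ± SE with 2 arrays per line. The BFC012 arrays were close to each other (291 probe sets at least 1 log2 unit apart) and the OP9M2 arrays were less so (2842 probe sets). Spiked poly-A control probe sets had medians of 6.49 on OP9M2 replicate 1 and 3.59 on OP9M2 replicate 2, against 5.93 and 5.31 on the BFC012 arrays, so OP9M2 replicate 2 differed from the others in its controls. The labels name no batch. Differences without that array are drawn for the 7 measured members in the plot of differences between the lines. The text gives them for Saa3, Ptx3, Hp and Orm1 and for some of the genes whose call its removal changes. Of 11 mesenchymal markers, 9 were above background on at least 1 array, and the exceptions were Thy1 and Lum. The lines differed within this list, with 1 gene called higher in OP9M2 and 0 lower. Col1a2 measured 14.25 and 14.14 in OP9M2 and 6.18 and 6.07, near background, in BFC012 (8.07 ± 0.14, 268-fold, limma adjusted p = 0.00105). Pdgfra (3.37 ± 0.56, adjusted p = 0.0513) and Pdgfrb (2.18 ± 0.51, adjusted p = 0.109) were not called with all arrays. The difference was above 0 for 6 of the 11.

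Promoter sequences were found for 4 of the 9 genes, and those of the 3 measured ones are shown because Saa3 and Ptx3 had the widest differences towards BFC012, while Lcn2 was not above background in either line. Each is the 250 bases before a RefSeq start site in build GRCm38.p6, read 5′ to 3′ on the strand of the gene. A match to the C/EBP motif TTNNGCAA is in capitals. The windows are chr7:46715677-46715926 on the minus strand for Saa3, chr3:66219637-66219886 on the plus strand for Ptx3 and chr2:32387740-32387989 on the minus strand for Lcn2. The Saa3 window lies inside the RefSeq span of the gene (46711998 to 46719615), so it does not precede the outermost start of that span.
Saa3: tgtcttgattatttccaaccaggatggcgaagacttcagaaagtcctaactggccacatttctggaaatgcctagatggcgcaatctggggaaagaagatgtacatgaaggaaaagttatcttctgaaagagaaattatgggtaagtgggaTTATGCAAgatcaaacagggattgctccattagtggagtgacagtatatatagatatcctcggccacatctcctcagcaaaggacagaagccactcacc
Ptx3: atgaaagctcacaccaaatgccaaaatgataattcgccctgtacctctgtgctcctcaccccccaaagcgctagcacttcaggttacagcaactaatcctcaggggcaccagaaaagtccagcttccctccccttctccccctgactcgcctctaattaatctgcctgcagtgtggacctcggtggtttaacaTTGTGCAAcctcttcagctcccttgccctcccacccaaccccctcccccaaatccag
Lcn2: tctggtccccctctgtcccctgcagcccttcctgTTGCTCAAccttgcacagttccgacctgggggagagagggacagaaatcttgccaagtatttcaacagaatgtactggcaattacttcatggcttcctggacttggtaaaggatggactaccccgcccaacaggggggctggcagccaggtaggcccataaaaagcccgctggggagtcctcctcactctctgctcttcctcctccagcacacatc
Each of these windows held 1 C/EBP match, as did that of C3 (TTGCGAAA, 45 bases before the start). The matches began 99 bases before the start in Saa3 (TTATGCAA), 57 in Ptx3 (TTGTGCAA) and 216 in Lcn2 (TTGCTCAA), where those of Lcn2 and C3 are the motif read from the other strand. On both strands, 9.56% of 32851 promoter windows of the same length held this motif. None of the 4 windows held the NF-kappaB motif (3 Gs, any 2 bases, 3 Ts and 2 Cs), the STAT motif TTCNNNGAA or the AP-1 motif TGANTCA, which 1.41%, 7.02% and 6.75% of the windows held; the motifs were searched separately, and no capitals overlap. These matches describe letters only, since binding was not measured.

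Of the 7 measured genes, Saa3 was called lower in OP9M2, none was called higher and 6 were not called. Over all genes, 3.56% were called lower and 2.36% higher, 5.91% in all. Without OP9M2 replicate 1, Saa3 and Ptx3 were called lower and no member higher, against 5.41% and 3.78% of all genes. Without OP9M2 replicate 2, the same 2 members were called lower and Hp and Orm1 higher, against 6.26% and 6.47% of all genes. In these fits OP9M2 has 1 array, which is assumed to vary like the BFC012 pair, so here and for every gene below their calls carry no spread of OP9M2. At an unadjusted p under 0.05 there were 2 members, Saa3 and Ptx3 (28.6%), both with less signal in OP9M2, against 23.3% of all genes. The median difference of the 7 genes was 0.28, against 0.032 over all genes. For 6 of the 7 genes the arrays of the lines did not overlap, and the same held for 53.2% of all genes. Lcn2 and Serping1 were not above background on any array, which is 28.6% of the members and compares with 32.4% of all genes.

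**Figure D1:**
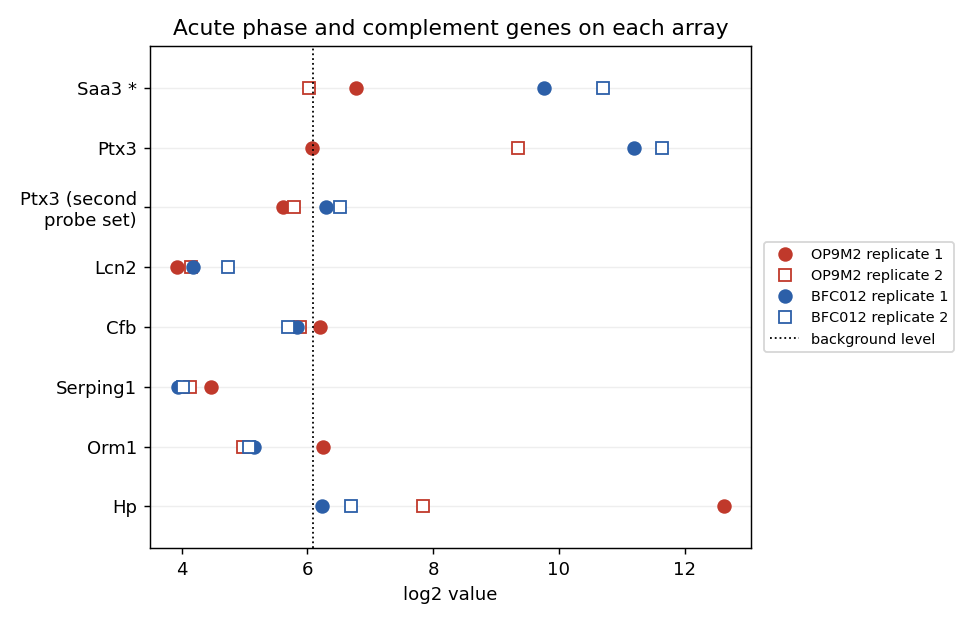
Signal in log2 units (horizontal axis) of every member probe set (rows, sorted by difference) on the 4 arrays. Red is OP9M2, blue is BFC012, filled circles are replicate 1, open squares are replicate 2, a dotted line marks 6.09 (background) and an asterisk the called gene. Saa3 and the main probe set of Ptx3 lie to the right in BFC012, and Hp lies at 12.6 in OP9M2 replicate 1 and at 7.83 in OP9M2 replicate 2.

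Saa3 encodes the serum amyloid A protein that mouse tissues outside the liver make on inflammatory stimulation. It measured 6.77 and 6.03 on the OP9M2 arrays and 9.76 and 10.71 on the BFC012 arrays. Both OP9M2 arrays lay near the background level, and both BFC012 arrays lay well above it. Saa3 was 14.2-fold lower in OP9M2 (-3.83 ± 0.42, limma adjusted p = 0.0191). The difference was called without OP9M2 replicate 1 (-4.20, adjusted p = 0.0124) and without OP9M2 replicate 2 (-3.46, adjusted p = 0.0158). It was not called without BFC012 replicate 1 (-4.31, adjusted p = 0.141) or without BFC012 replicate 2 (-3.36, adjusted p = 0.198), where the spread comes from the OP9M2 arrays alone and limma called 0 of 18193 genes (2208 and 2252 at an unadjusted p under 0.05). The BFC012 arrays were 0.95 apart, a gap that 0.737% of genes reached in that line.

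The other serum amyloid A genes did not share this signal. Saa1, Saa2 and Saa4, which lie in the same gene family and of which Saa1 and Saa2 are the main liver forms, were not above background on any array and differed by 0.21, -0.10 and -0.062 with limma adjusted p of 0.507, 0.796 and 0.884. The 3 genes nearest to Saa3 by Euclidean distance over the 4 log2 values were the forkhead factor Foxf1 (distance 0.607), the homeobox gene Hoxa10 (0.734) and the interleukin-6 family cytokine Lif (0.769). Genes used as markers of mesothelium, the cell layer that lines body cavities, also had more signal in BFC012. Of 10 such genes 6 were called lower in OP9M2 and none higher. The mean level of the 10 was 5.48 and 5.64 on the OP9M2 arrays and 9.24 and 9.57 on the BFC012 arrays. On the OP9M2 arrays Gpm6a, Bnc1, Upk3b, Lrrn4, Wt1, Krt8 and Krt18 were not above background. The contrast was not uniform, since Msln, Krt19, Krt8 and Krt18 were not called. Msln measured 6.56 and 10.00 in OP9M2 and 10.19 and 10.48 in BFC012 (-2.05 ± 1.16, limma adjusted p = 0.443). Krt19 differed by -1.40 ± 0.68 (adjusted p = 0.373), Krt8 by -0.59 and Krt18 by -0.039. Krt18 was not above background on any array. The part of the mesothelial markers in the Saa3 result was not tested.

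Ptx3 encodes pentraxin 3, a soluble pattern recognition molecule that stromal and myeloid cells secrete and that binds complement component C1q. Its main probe set measured 6.07 and 9.36 on the OP9M2 arrays and 11.19 and 11.63 on the BFC012 arrays. OP9M2 replicate 1 was at the background level and OP9M2 replicate 2 was clearly above it, yet both lay below the BFC012 arrays. The difference was -3.70 ± 1.11 (95% interval -6.65 to -0.74, limma adjusted p = 0.178) and was not called. The second probe set of Ptx3 measured 5.61 and 5.79 in OP9M2 and 6.30 and 6.52 in BFC012, in the same order and closer to background (-0.71 ± 0.16, adjusted p = 0.102). With either OP9M2 array left out, so that the spread comes from the BFC012 arrays alone, the main probe set was called lower, by -2.05 without replicate 1 (adjusted p = 0.0185) and by -5.34 without replicate 2 (adjusted p = 0.00165). The OP9M2 arrays agreed on the direction for Ptx3 but lay 3.29 log2 units apart.

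Tnfaip6, which encodes the hyaluronan binding protein TSG-6 that acts together with pentraxin 3 in matrix assembly, was called lower in OP9M2. It measured 6.18 and 6.76 on the OP9M2 arrays and 8.49 and 9.03 on the BFC012 arrays (-2.29 ± 0.29, adjusted p = 0.0283).

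Hp encodes haptoglobin, the plasma protein that binds free hemoglobin and that adipocytes make besides the liver. It measured 12.62 and 7.83 on the OP9M2 arrays and 6.24 and 6.70 on the BFC012 arrays. Both OP9M2 arrays were above both BFC012 arrays, but OP9M2 replicate 1 was far above OP9M2 replicate 2. The difference of 3.76 ± 1.61 was not called (95% interval -0.52 to 8.03, limma adjusted p = 0.314). Without OP9M2 replicate 2 it was 6.15 and called (adjusted p = 0.00137), and without OP9M2 replicate 1 it was 1.36 and not called (adjusted p = 0.0508). In these bulk cultures a higher share of Hp-expressing cells and more Hp RNA per cell cannot be told apart.

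The gap of 4.79 log2 units between the OP9M2 arrays in Hp was among the widest of all genes. It was reached by 5 genes (0.0275%), Hp among them, and the median gap in OP9M2 was 0.24. The others, which were named after their values were seen, were the adipocyte hormone Adipoq, the carbonic anhydrase Car3 and the amine oxidase Aoc3, which are known from fat tissue, and the muscle repeat protein Ankrd1. Adipoq measured 12.84 and 5.41 on the OP9M2 arrays and 3.99 and 3.39 on the BFC012 arrays. The OP9M2 array high for Adipoq was that of Hp, and the other was below background. With all arrays Adipoq differed by 5.44 ± 2.49 and was not called (limma adjusted p = 0.343). Without OP9M2 replicate 2 it differed by 9.15. Ankrd1 was instead higher on OP9M2 replicate 2, at 4.46 and 9.31 in OP9M2 and 12.62 and 11.83 in BFC012. Ptx3 had a gap of 3.29, reached by 0.154% of genes, and was also higher on OP9M2 replicate 2.

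**Figure D2:**
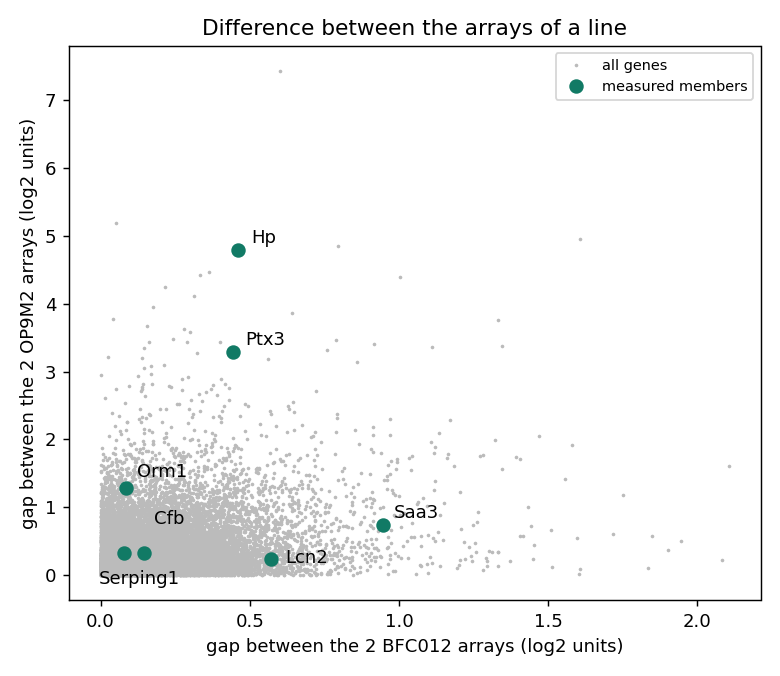
Distance in log2 units between the OP9M2 replicates (vertical axis) and between the BFC012 replicates (horizontal axis), with 18193 genes in grey and the 7 measured members in green. Hp at 4.79 and Ptx3 at 3.29 lie far up the OP9M2 axis, and Saa3 lies at 0.95 on the BFC012 axis.

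Most adipocyte markers had more signal in OP9M2, with unequal gaps between its arrays. Of 7 measured adipocyte markers 4 were called higher in OP9M2 and none lower, and their mean level was 11.3 and 9.25 on the OP9M2 arrays and 5.35 and 5.32 on the BFC012 arrays. Pparg, the regulator of fat cell formation, was called higher (4.46 ± 0.23, adjusted p = 0.00321). Pparg and Fabp4, a fatty acid carrier that was also called, had gaps of 0.56 and 0.60 between the OP9M2 arrays, and Retn, the resistin gene, differed by -0.049 and was not called. Cebpa, a C/EBP factor of adipocytes and liver, measured 12.69 and 8.92 in OP9M2 and 6.55 and 6.59 in BFC012 (4.23 ± 1.26, limma adjusted p = 0.176), so that its high array was that of Hp. Cebpa was called higher with either OP9M2 array left out (2.35 without replicate 1, adjusted p = 0.00501, and 6.12 without replicate 2, adjusted p = 0.000996). The part of these genes in the Hp result was not tested. Markers of hepatocytes, the main source of haptoglobin in the body, were called in 0 of 11 measured genes by limma (2 at an unadjusted p under 0.05), and 8 of them, Alb, Afp and Ahsg included, were not above background on any array, while Apoa2, Ttr and Hnf4a were above it on all 4. The hemoglobin scavenger receptor gene Cd163 was not above background either.

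Orm1 encodes orosomucoid, a plasma carrier of small lipophilic molecules that is known from liver and fat. It measured 6.25 and 4.97 on the OP9M2 arrays and 5.15 and 5.06 on the BFC012 arrays. OP9M2 replicate 1 alone was above background, and OP9M2 replicate 2 was below both BFC012 arrays. The difference was 0.51 ± 0.45 and not called (95% interval -0.68 to 1.69, adjusted p = 0.636). It was -0.13 without OP9M2 replicate 1 (adjusted p = 0.704) and 1.15 without OP9M2 replicate 2, which was called (adjusted p = 0.0218). The related genes Orm2 and Orm3 were not above background on any array.

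Lcn2 encodes lipocalin 2, an acute phase protein that withholds iron from bacteria by binding their siderophores. It measured 3.92 and 4.15 on the OP9M2 arrays and 4.17 and 4.74 on the BFC012 arrays, below background throughout (-0.42 ± 0.24, 95% interval -1.06 to 0.22, adjusted p = 0.454). The gene of its proposed receptor, Slc22a17, named for that role outside the rule for named genes, was above background on every array, at 8.45 and 7.94 in OP9M2 and 7.44 and 7.55 in BFC012 (0.70 ± 0.21, adjusted p = 0.183). A difference in Lcn2 was not detectable at this signal.

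The complement members were dim in both lines. Cfb, the protease component of the alternative pathway convertase, measured 6.20 and 5.88 on the OP9M2 arrays and 5.83 and 5.69 on the BFC012 arrays, so that it passed the background level on OP9M2 replicate 1 alone (0.28 ± 0.17, 95% interval -0.18 to 0.74, adjusted p = 0.485). Serping1, the C1 inhibitor that restrains the classical pathway and the kinin system, measured 4.46 and 4.14 on the OP9M2 arrays and 3.94 and 4.02 on the BFC012 arrays, below background throughout (0.32 ± 0.17, 95% interval -0.13 to 0.77, adjusted p = 0.409). Both genes had slightly more signal in OP9M2, and neither difference was called or reached 1 log2 unit at the bounds of its interval.

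**Figure D3:**
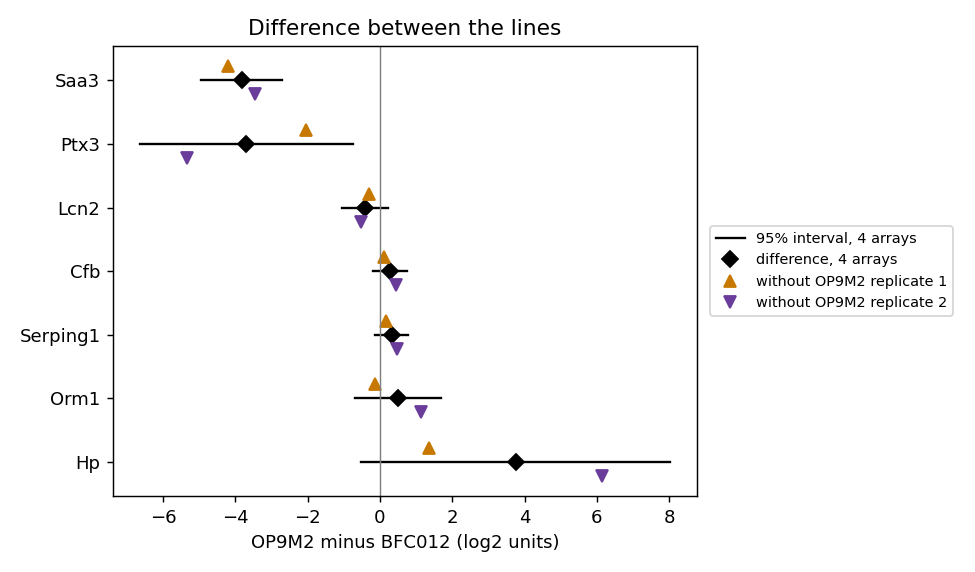
Difference OP9M2 minus BFC012 (horizontal axis, log2 units) of the 7 measured genes, with diamonds and lines for all 4 arrays with the 95% interval of the limma fit, and triangles for the difference without OP9M2 replicate 1 (pointing up) or replicate 2 (pointing down). The interval of Saa3 (-4.95 to -2.72) is narrow beside those of Ptx3 and Hp, whose triangles lie at -2.05 and -5.34 and at 1.36 and 6.15.

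Other complement genes were named mainly by their difference between the lines, so not every expressed gene of the cascade is described. Among 15 measured genes of the classical and lectin pathway start, Masp1, a protease of the lectin pathway, was called higher in OP9M2 at 11.54 and 11.20, against 8.12 and 8.31 in BFC012 (3.15 ± 0.18, 8.88-fold, adjusted p = 0.00397), and the other 14 were not called. C1s1, a protease of the C1 complex, measured 11.39 and 8.02 in OP9M2 and 10.78 and 11.88 in BFC012 (-1.62 ± 1.19, adjusted p = 0.558). OP9M2 replicate 2 was low for C1s1 while OP9M2 replicate 1 lay between the BFC012 arrays. It was called lower without OP9M2 replicate 1 (-3.31, adjusted p = 0.0313) and differed by 0.056 without replicate 2 (adjusted p = 0.964). The ficolin Fcna (1.17 ± 0.21, adjusted p = 0.0624) and the collectin Colec12 (-1.04 ± 0.45, adjusted p = 0.321) were not called with all arrays. Fcna differed by 1.40 without OP9M2 replicate 1 and by 0.93 without replicate 2. Its limma adjusted p was 0.112 with the replicate number as a block. In the fit on means of probe sets it was 0.0462, with an unchanged difference and the adjustment over 18193 genes. C1qa, C1qb and C1qc, the recognition chains of C1 made by macrophages, were not above background on any array. Of 14 macrophage and neutrophil markers limma called 0 (1 at an unadjusted p under 0.05), and 9 of them, Ptprc, Adgre1 and Itgam included, were not above background on any array. Laptm5 and Csf1r were above it on all 4 arrays, Cd68 and Spi1 on 3 and Lyz2 on 1.

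Of 7 measured genes of the alternative pathway and the terminal components, limma called 0, also at an unadjusted p under 0.05. The brightest were properdin, Cfp, at 7.29 and 7.21 in OP9M2 and 6.97 and 6.65 in BFC012 (0.44 ± 0.17, adjusted p = 0.266), and C8g (0.14 ± 0.45, adjusted p = 0.925). Of 15 complement regulators limma called 0, with 4 at an unadjusted p under 0.05. The secreted inhibitor Clu measured 9.17 and 7.69 in OP9M2 and 10.55 and 10.99 in BFC012 (-2.34 ± 0.53, adjusted p = 0.102), and the membrane inhibitor Cd59a measured 10.09 and 8.99 in OP9M2 and 7.74 and 7.72 in BFC012 (1.81 ± 0.39, adjusted p = 0.0928). Each was called with either OP9M2 array left out, where the spread comes from the BFC012 arrays alone. Cr1l, the rodent membrane regulator Crry, and C4bp passed the adjusted p with differences under 1 log2 unit (0.98, adjusted p = 0.0428, and -0.86, adjusted p = 0.0418, named after their values were seen), and C4bp was not above background. Of 6 complement receptor genes limma called 0 (0 at an unadjusted p under 0.05), and the brightest were Itgb2 (-0.59) and Itgax (0.0094), of which Itgax was not above background.

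Among 27 other measured acute phase genes, 2 were called lower in OP9M2 and none higher, and 16 were not above background on any array. The metallothionein gene Mt2 measured 8.63 and 8.89 in OP9M2 and 11.32 and 11.59 in BFC012 (-2.70 ± 0.18, 6.50-fold lower, adjusted p = 0.00548). Cd14, a co-receptor for lipopolysaccharide, measured 7.12 and 7.47 in OP9M2 and 8.94 and 9.57 in BFC012 (-1.96 ± 0.27, 3.90-fold lower, adjusted p = 0.0347), a call lost with the replicate number as a block (adjusted p = 0.0530). Mt2 and Cd14 were lower on both OP9M2 arrays than on both BFC012 arrays, as Saa3 was. They were above background on all 4 arrays, whereas Saa3 lay near it in OP9M2. The metallothionein gene Mt1, named outside the rule, measured 12.78 and 11.77 in OP9M2 and 12.36 and 12.74 in BFC012. The lines overlapped for Mt1, and it was not called (-0.27 ± 0.38, limma adjusted p = 0.788). Il1rn, the interleukin-1 receptor antagonist, measured 7.83 and 9.88 in OP9M2 and 6.31 and 6.28 in BFC012 (2.56 ± 0.69, adjusted p = 0.146), and Lrg1 measured 7.83 and 4.88 in OP9M2 and 4.72 and 4.72 in BFC012 (1.63 ± 0.99, adjusted p = 0.475). Neither was called, and Lrg1 was above background on OP9M2 replicate 1 alone. Lrg1 differed by 0.16 without OP9M2 replicate 1 (adjusted p = 0.641) and by 3.11 without replicate 2, which was called (adjusted p = 0.00202). Il1rn was called without OP9M2 replicate 1 (3.58, adjusted p = 0.00207), without replicate 2 (1.54, adjusted p = 0.0102) and with the mean of its probe sets (3.52, adjusted p = 0.0262).

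The cytokines that drive acute phase genes had their called differences towards BFC012. Of 12 measured cytokine genes 2 were called lower in OP9M2 and none higher: the alarmin Il33, at 4.31 and 3.33 in OP9M2 and 12.68 and 13.01 in BFC012 (-9.02 ± 0.37, at least 108-fold lower, adjusted p = 0.00194), and Lif, at 6.27 and 6.18 in OP9M2 and 9.81 and 10.14 in BFC012 (-3.75 ± 0.17, 13.5-fold lower, adjusted p = 0.00239). With the mean of its probe sets, Lif differed by -2.22 (limma adjusted p = 0.00650). Il6 measured 8.63 and 4.67 in OP9M2 and 8.31 and 8.49 in BFC012 (-1.75 ± 1.33, adjusted p = 0.574). OP9M2 replicate 2 was below background for Il6 and the other 3 arrays were not, so that the difference was -3.73 without OP9M2 replicate 1 (adjusted p = 0.00223) and 0.23 without OP9M2 replicate 2 (adjusted p = 0.502). Il1a, Il1b, Tnf, Il17a and Ifng were not above background on any array.

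Of 15 measured receptor genes 3 were called lower in OP9M2 and none higher. Lifr, the receptor chain for leukemia inhibitory factor, measured 6.12 and 5.89 in OP9M2 and 10.35 and 10.91 in BFC012 (-4.63 ± 0.24, adjusted p = 0.00317), Il17ra differed by -3.42 ± 0.13 (at least 9.14-fold lower, adjusted p = 0.00183), and Osmr, the chain for oncostatin M, by -1.66 ± 0.14 (adjusted p = 0.0102). The interleukin-1 receptor gene Il1r1 had more signal in OP9M2 and was not called (1.53 ± 0.52, limma adjusted p = 0.219). The same held for the interleukin-6 receptor gene Il6ra (1.19 ± 0.34, adjusted p = 0.161). Il1r1 differed by 0.78 without OP9M2 replicate 1 and by 2.28 without replicate 2. With the mean of its probe sets Il1r1 differed by 0.80 and was not called (adjusted p = 0.205). Il6st, the shared chain gp130, named outside the rule, measured 11.57 and 10.22 in OP9M2 and 10.57 and 10.53 in BFC012, with overlap between the lines.

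Of 21 measured transcription factors and inhibitors, Cebpd, a C/EBP factor that is itself induced in the acute phase, was called lower in OP9M2, at 8.61 and 8.23, against 11.24 and 11.65 in BFC012 (-3.02 ± 0.23, 8.13-fold lower, adjusted p = 0.00737). The other 20 were not called. Cebpb, named outside the rule, measured 12.15 and 11.95 in OP9M2 and 12.75 and 13.02 in BFC012 (-0.84 ± 0.17, adjusted p = 0.0813), and Cebpa, given above, had more signal in OP9M2. The NF-kappaB subunit genes Rel (-1.87 ± 0.32, adjusted p = 0.0553) and Rela (-0.89 ± 0.13, adjusted p = 0.0414, under the 2-fold limit, named after its values were seen) and the factor gene Stat3 (-1.05 ± 0.40, adjusted p = 0.262) had less signal in OP9M2 and were not called. Rel was called under several alternatives, with limma adjusted p of 0.0393 after the filter on dim probe sets and 0.0441 with a variance trend. In the fit on means of probe sets the adjusted p was 0.0434. The difference of Rel did not change there, and the adjustment ran over 18193 genes. With the replicate number as a block the adjusted p was 0.157. Rel differed by -1.46 without OP9M2 replicate 1 and by -2.29 without replicate 2. Stat3 differed by -1.61 without OP9M2 replicate 1 and by -0.49 without replicate 2. With the mean of its probe sets Stat3 differed by -0.61 and was not called (limma adjusted p = 0.379). Nfkbia and Socs3, feedback targets of NF-kappaB and STAT3 named outside the rule, differed by -0.11 ± 0.18 and -0.63 ± 0.62 (adjusted p = 0.826 and 0.681).

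**Figure D4:**
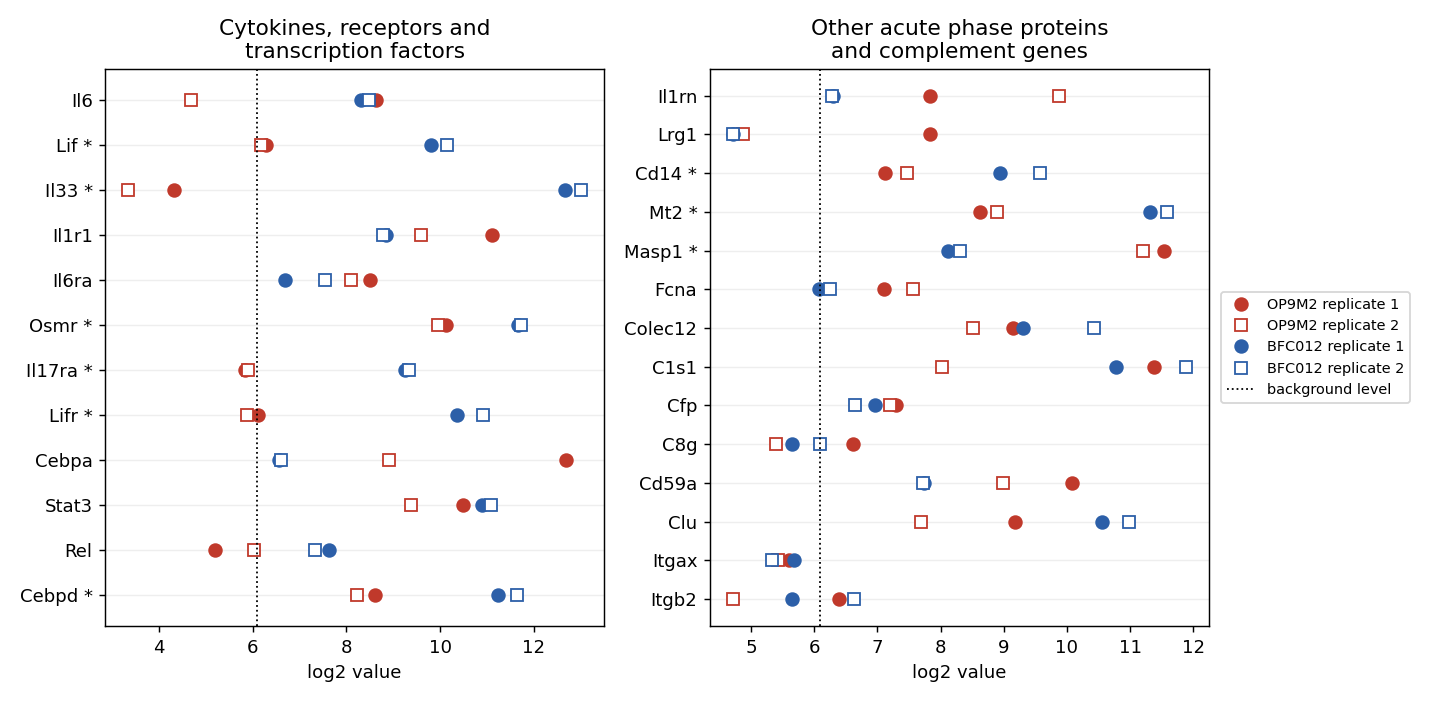
Signal in log2 units (horizontal axes) on the 4 arrays of the genes named from the lists of cytokines, receptors and transcription factors (left) and of other acute phase proteins and complement genes (right), grouped by list and ordered by difference within it; colours, symbols, dotted line and asterisks are those of the plot of member values. Il33, Lif, Lifr, Il17ra, Osmr and Cebpd lie to the right in BFC012, and Il6 and C1s1 lie low on OP9M2 replicate 2 (4.67 and 8.02).

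Among the 16 measured receptors and partners of the member proteins, Tnfaip6 was the only one called. Cd36, a scavenger receptor that binds serum amyloid A, measured 11.56 and 7.13 in OP9M2 and 3.41 and 3.74 in BFC012, with the same OP9M2 array high as for Hp (5.77 ± 1.48, adjusted p = 0.131). It was called higher without OP9M2 replicate 1 (3.56, adjusted p = 0.00375) and without OP9M2 replicate 2 (7.98, adjusted p = 0.000996). Lrp1, the receptor that clears the complex of heme and hemopexin, differed by 1.23 ± 0.35 and was not called (limma adjusted p = 0.161). Lrp1 differed by 0.74 without OP9M2 replicate 1 and by 1.71 without replicate 2. With the mean of its probe sets it was called (1.68, adjusted p = 0.0182).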

How the data were processed

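Total RNA of 4 cultures, 2 per line, was hybridized by the authors to Affymetrix mouse 430 2.0 arrays after amplification. The authors deposited intensities per probe set; the labels name RMA and affy, the methods Bioconductor 2.7, and no other version is stated in them. Between 6.27% and 6.54% of the values of an array exceeded 65535, the scanner maximum, so the deposited intensities are not log2 RMA values raised by base 2. Their natural logarithms, between 2.06 and 14.9, were read as RMA log2 values. The base was not stated by the authors, and log2 of the deposited intensities would multiply each difference by 1.44.

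Array controls (64 of 45101 probe sets) were left out. In the array annotation 34945 probe sets named 1 gene, 932 several and 9160 none; symbols were updated through the RefSeq gene identifier for 34741 and kept for 204. A gene was represented by its brightest probe set by mean signal, of those that name no other gene. Lines were compared with limma 3.58.1 (R 4.3.3; functions lmFit and eBayes; 2 arrays a line; 2 residual and 2.5 prior degrees of freedom), with Benjamini-Hochberg adjustment over 45037 probe sets; the code was tested on simulated data. The number of arrays limits the precision. For a line with no array above background, the background level replaced its mean and the fold is given as a lower bound. No depth or detection calls were used. The members, the gene lists and the tests were chosen with earlier results of these data known. Genes named beside the members were the called genes of each list and those above background on an array with a difference of at least 1 log2 unit. Where a list had none of these, its 2 brightest were named. Exceptions are Retn, those the text marks, and the genes named for being above or below background. Lpl, Cidec and Upk1b also met this rule and enter the counts of their lists, but are not described above. Alternatives were another log base, quantile normalization, median centring, a filter on dim probe sets, the mean of a gene's probe sets, a variance trend, the replicate number as a block and leaving out each array.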

Additional observations from a re-analysis of the deposited data

How the results depend on the processing

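With log2 of the deposited values, quantile normalization, median centring, a filter on dim probe sets, the mean of a gene's probe sets or a variance trend, Saa3 stayed the 1 member called lower and no member was called higher, and the 7 members kept their direction where they could be fitted (3 of 7 after the filter on dim probe sets). With the replicate block, 0 members, 140 genes higher and 280 genes lower were called, and Saa3 (limma adjusted p = 0.0962), Cd14 (0.0530), Cebpd (0.0554), Osmr (0.0642) and the markers Plin4 (0.104) and Lrrn4 (0.106) lost their calls; the labels give the numbers no shared origin, and the deviations of equal numbers correlated at -0.10. A crossed replicate block, added after seeing the data, called 0 members higher and 1 lower, and 321 genes higher and 455 lower, and Cd14 and Tnfaip6 were not called. Leaving out 1 array gave 0 to 2 members higher, 0 to 2 lower, 0 to 1177 genes higher and 0 to 1139 lower. The low ends came from leaving out a BFC012 array, and Hp and Orm1 (higher) and Saa3 and Ptx3 (lower) were called without OP9M2 replicate 2. Without OP9M2 replicate 1 the called members were Saa3 and Ptx3. Leaving out 1 array turned the sign of Orm1 (-0.13 to 1.15), C1s1 (-3.31 to 0.056), Il6 (-3.73 to 0.23), C8g (-0.48 to 0.75), Itgb2 (-1.43 to 0.26), Itgax (-0.16 to 0.18) and Csf1r (-0.12 to 0.046), none of which was called with all arrays. Itgax also turned with quantile normalization (-0.030) and median centring (-0.0051). The cause of these changes was not tested beyond the arrays left out. Signals near or below 6.09 log2 units limit what can be said of Lcn2, Serping1, Cfb and Orm1. Each difference and fold in the main fit rests on the brightest probe set of its gene. With the mean of a gene's probe sets, the difference was smaller but still called for genes such as Lif (-2.22), Lifr (-3.16), Cebpd (-2.02), Masp1 (2.23) and Osmr (-1.03). It was larger for genes such as Clu (-2.56), Cd59a (2.08), Il1rn (3.52) and Lrp1 (1.68), where Il1rn and Lrp1 were called and Clu and Cd59a were not. It was smaller and not called for other genes, such as the member Ptx3 (-2.20), Il1r1 (0.80), Il6ra (0.69) and Stat3 (-0.61).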
